A study of Mus musculus with 3 samples.

Results

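The miRNAs of the imprinted Dlk1-Dio3 locus were examined in matrix vesicles (MVs), the particles that osteoblasts shed into the bone matrix. They were chosen by name, as every mouse miRNA on the array whose number is one of 49 numbers known from this locus, with any letter or arm. All 49 numbers had at least 1 name on the array, which gave 100 names among the 1079 mouse miRNAs measured. The rule uses names and no signal, but it was set with earlier results of these data known. The genes of all 100 names lie, by RefSeq's gene table for mouse assembly GRCm38.p6, between Dlk1 and Dio3 on chromosome 12.

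MVs came from 3 independent isolations of MC3T3-E1 cultures, an established mouse calvaria-derived line of osteoblastic cells that lays down a collagen matrix in osteogenic medium. The cell line is unmodified as far as the labels say, and all isolations received the same treatment, 500 units/mL collagenase and ultracentrifugation. The labels give β-glycerophosphate in the medium, whereas the methods of the study take MVs from cultures without it, and the cells were grown with fetal bovine serum. From each isolation, 100 ng of total RNA was labeled with Cy3 and hybridized to 1 mouse miRNA array, so there is 1 group of 3 arrays and parent cells and other conditions were not analysed here. The values therefore show which miRNAs gave signal in MVs and how this varied between isolations, with no difference between conditions to test.

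The Dlk1-Dio3 locus is among the largest miRNA clusters of the mouse genome. Its protein-coding genes Dlk1, Rtl1 and Dio3 are expressed from the chromosome inherited from the father, and its non-coding RNAs Meg3, Rian and Mirg, with many snoRNAs and miRNAs, from the maternal chromosome. The miRNAs are best known from embryo, placenta and brain, and their expression has been used to judge the quality of induced pluripotent stem cells. Each miRNA hairpin can give a 5p and a 3p strand, of which usually one is loaded into the silencing complex, where the seed (bases 2 to 8) pairs with target mRNAs.

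Only 4 of the 100 names were detected in any isolation, namely miR-494-3p and miR-370-3p in all 3, miR-341-3p in isolations 2 and 3, and miR-539-5p in isolation 2. Their mature sequences are shown with those of their other strands, as RefSeq lists them in GRCm38.p6, 5′ to 3′ with the seed in capitals. The 3p strand of miR-539 is named only. Under them stand miR-127-3p, miR-379-5p, miR-410-3p and miR-134-5p, 4 well-studied members of the locus that were not detected in any isolation.
miR-494-3p: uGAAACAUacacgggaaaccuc
miR-494-5p: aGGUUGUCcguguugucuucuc
miR-370-3p: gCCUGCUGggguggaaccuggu
miR-370-5p: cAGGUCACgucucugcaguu
miR-341-3p: uCGGUCGAucggucggucggu
miR-341-5p: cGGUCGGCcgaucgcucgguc
miR-539-5p: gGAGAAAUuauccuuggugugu
miR-127-3p: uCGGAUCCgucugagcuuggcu
miR-379-5p: uGGUAGACuauggaacguagg
miR-410-3p: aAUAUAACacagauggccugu
miR-134-5p: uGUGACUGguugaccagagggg

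The hairpin of miR-494 lies at chr12:109715318-109715402 and that of miR-370 at chr12:109618258-109618336. Those of miR-341 and miR-539 are at chr12:109611500-109611595 and chr12:109728129-109728202, all on the plus strand. None of the 4 detected sequences is listed by RefSeq for a second miRNA gene, and none shares its seed with another mature mouse miRNA of the RefSeq table.

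Detection is the call that the scanner software gave each name. All undetected names were deposited at 0.1, a placeholder and not a level, whereas the lowest signal with a call was 4.87, 4.39 and 4.41 in isolations 1, 2 and 3. Detection was scarcer among the listed names than on the rest of the array. At least 1 isolation gave a call for 4 of the 100 names (4%), against 176 of the 979 other mouse miRNAs (17.98%) and 16.7% of all 1079. The share called in at least 2 isolations was 3% in the locus, 16.5% of the others and 15.3% of all, and the share called in every isolation was 2%, 8.38% and 7.78%, respectively. Isolation 1 called 2 names of the locus and 84 others, isolation 2 called 4 and 175, and isolation 3 called 3 and 161. The share was thus below that of the other miRNAs in each of the 3 isolations, and these counts stand as a description, with no test of the list. Fewer vesicles that carry a miRNA and less of it per vesicle cannot be told apart on these arrays.

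**Figure D1:**
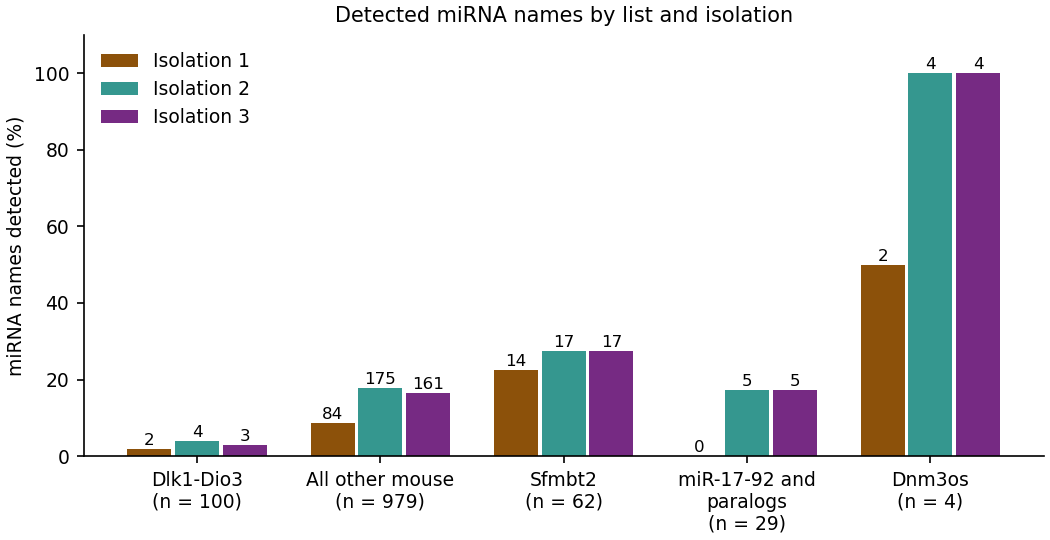
Percent of miRNA names detected (vertical axis) in each of 3 isolations (bars, with the number of detected names above each) for 5 lists of names. The Dlk1-Dio3 names stay at 2 to 4%, below the other mouse miRNAs in every isolation, while all 4 Dnm3os names were detected in isolations 2 and 3.

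Other miRNA clusters, taken by name, differed in their shares, beside 16.7% of all mouse miRNAs in at least 1 isolation and 7.78% in all. The Sfmbt2 list took every name numbered miR-297, miR-466, miR-467 or miR-669, numbers known from a large cluster of another imprinted gene. Of its 62 names, 17 were detected in at least 1 isolation (27.4%) and 14 in all. They were not selected by gene position, so this share is not assigned to Sfmbt2. Many 5p names of this list share UG-rich repeats, so the names are not independent of each other. All 14 names detected in every isolation were 5p strands or names without an arm. The miR-17-92 cluster and its paralogs, known for promoting proliferation, had 5 of 29 names in at least 1 isolation (17.2%), near the share of all mouse miRNAs, and 0 in all, with 0 of 29 called in isolation 1. All 4 names of the Dnm3os cluster (miR-199a and miR-214), which is active in mesenchymal and skeletal cells, were detected in at least 1 isolation, and 2 of them in isolation 1 and in all. These names were taken without regard to gene copies, so their signal is not assigned to Dnm3os.

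The well-known miRNAs of the locus were looked up by name. Of 16 names listed as its textbook members, 15 are on the array, and 0 of these 15 were detected in any isolation, beside 4% of the whole list and 16.7% of all mouse miRNAs. The textbook list holds none of the 4 detected members, so the count is a description of these names and, at the 4% of the whole list, says nothing particular to them. The 15 names include miR-127-3p, miR-433-3p, miR-431-5p and miR-434-3p, which lie antisense to Rtl1 and, in the case of miR-127, are known to cut Rtl1 mRNA in placenta. They further include miR-379-5p and miR-410-3p, which name the ends of the large distal cluster, and miR-376a-3p, whose seed is a known target of adenosine editing. miR-134-5p, known for limiting dendritic spine growth in neurons, was also below detection, as were miR-154-5p, miR-300-3p, miR-381-3p, miR-409-3p, miR-411-5p, miR-541-5p and miR-770-3p. The other textbook name, miR-299a-5p, has no feature under this name. For these names the arrays give no level, and a low amount cannot be told from none.

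Detection was scarcer in the list than among the other mouse miRNAs for both arms, and counts this small do not set the arms apart. The list holds 49 names of 5p strands, 49 of 3p strands and 2 without an arm, and detection was called for 1, 3 and 0 of them, respectively. Among the other mouse miRNAs, 20.2% of the 5p names, 13.2% of the 3p names and 23.6% of those without an arm were detected in at least 1 isolation. The names come from 52 miRNA genes, of which 48 have both strands on the array, and of these 48 genes, 4 (8.33%) gave signal from a strand and 0 from both. Among the other miRNA names with both strands on the array, 95 of 336 (28.3%) gave signal from at least 1 strand and 8 (2.38%) from both.

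The detected names did not come from adjacent genes, and all lay within Rian or between Rian and Mirg. In the gene table, miR-341 and miR-370 lie within Rian, the non-coding RNA gene that also holds most snoRNAs of the region, separated by miR-1188, and 2 of the 4 names there were detected. Between Rian and Mirg, which is where the table puts most of the distal cluster, 2 of 57 names were detected, miR-494-3p with neighbors miR-329 and miR-679, and miR-539-5p with neighbors miR-487b and miR-544. No strand of these neighboring genes was detected. None of the 21 names within the Rtl1 span, the 16 within Mirg or the 2 within Meg3 was detected. Beside the 4% of the whole list and the 16.7% of all mouse miRNAs, these counts are too small to show a pattern by position.

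**Figure D2:**
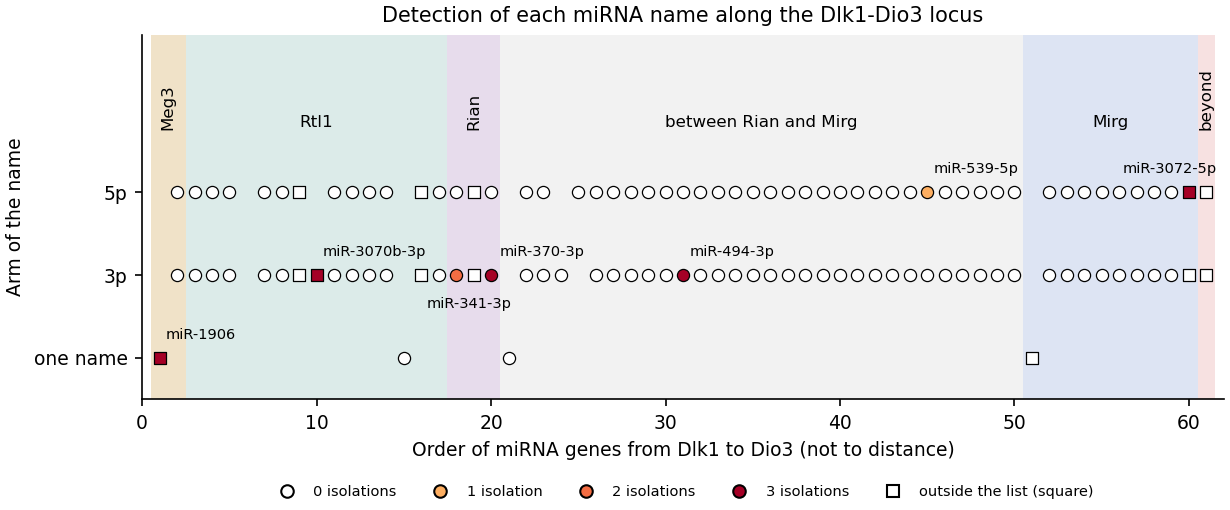
Each miRNA name of the locus by the order of its gene from Dlk1 to Dio3 (horizontal axis, not to distance) and its arm (vertical axis), filled by the number of isolations in which it was detected and shaded by the non-coding or coding gene that spans it. Circles are the 100 names of the list, of which 4 are filled, and squares are 13 further names of the locus, of which 3 are filled.

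The gene table holds 61 miRNA genes between Dlk1 and Dio3, and 13 array names of these genes have numbers outside the list. Of these 13, 3 were detected in every isolation (23.1%). The share was 17.98% in at least 1 isolation and 8.38% in all for the other mouse miRNAs. For all mouse miRNAs it was 16.7% and 7.78%. A count of 3 among 13 names is too small to set these further names apart from the rest of the array. The 3 detected names are miR-3070b-3p, within the Rtl1 span, miR-3072-5p, within Mirg next to miR-410, and miR-1906, within Meg3. The mature sequence of miR-1906 is also given by a second gene on chromosome X, so its signal cannot be assigned to the locus. With the 13 names added, 7 of 113 names (6.19%) were detected in at least 1 isolation and 5 (4.42%) in all. The undetected ones were both strands of miR-1188, miR-1247, miR-3070a and miR-3071, miR-3072-3p and miR-453. The sequences of both named miRNAs that RefSeq lists are given for comparison with the members.
miR-3072-5p: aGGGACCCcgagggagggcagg
miR-1906: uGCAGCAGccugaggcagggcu

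miR-494-3p had signals of 149.0, 227.6 and 194.2 in isolations 1, 2 and 3, each more than 12 times its own error (12.5, 12.8 and 12.7 times). On the log2 scale these are 7.22, 7.83 and 7.60, or 7.55 ± 0.31 (SD, n = 3). Isolation 1 was lowest and isolation 2 highest. By brightness it took place 15 among 86 detected mouse miRNAs, then 22 among 179 and 21 among 164. Such places order signals of different probes, whose responses differ, and do not rank RNA amounts.

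miR-370-3p had signals of 47.9, 74.3 and 62.9 in the same order, 9.92, 11.7 and 11.2 times their errors. The log2 signals were 5.58, 6.21 and 5.97, or 5.92 ± 0.32 (SD, n = 3), again lowest in isolation 1 and highest in isolation 2. Its places were 30, 63 and 54. Among the other miRNAs detected in all isolations, the nearest in mean log2 signal were miR-671-5p, miR-214-3p and miR-652-3p for miR-370-3p and let-7b-5p, miR-2861 and miR-32-3p for miR-494-3p.

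miR-341-3p was near the detection limit, with signals of 18.5 in isolation 2 and 9.78 in isolation 3, or 4.88 and 3.74 times their errors, and no call in isolation 1. Its difference between isolations 3 and 2, -0.92 log2 units, was 1.90 times the combined error of both readings. Of the 132 other miRNAs at least as bright as miR-341-3p in isolation 2, 50 were likewise not detected in isolation 1.

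miR-539-5p was called in isolation 2 alone, with a signal of 20.8, 7.61 times its error. The signal is 4.72 times the lowest detected signal of isolation 3, where it was not detected. Of the 126 other miRNAs at least as bright in isolation 2, 45 were missed in isolation 1 but 1 in isolation 3, namely miR-207, which was named after its value was seen. The call of miR-539-5p thus rests on 1 array, and without isolation 2 it is lost, which leaves 3 detected names.

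**Figure D3:**
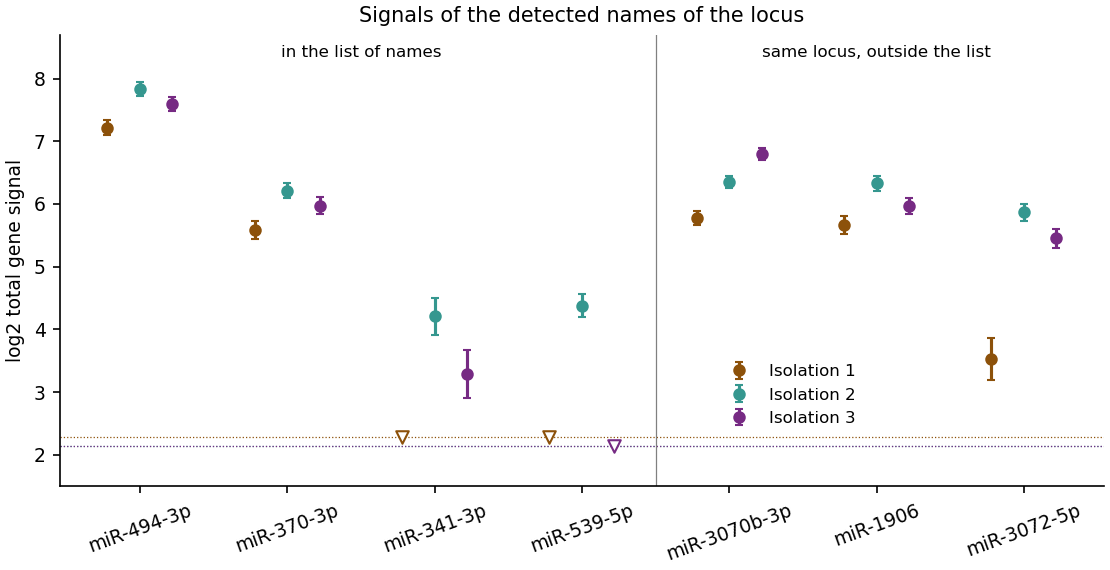
log2 total gene signal (vertical axis) of the 7 detected names of the locus in 3 isolations (points), with the scanner error of each reading as bars. Open triangles stand at the lowest detected signal of an isolation (dotted lines) for names not detected there, as for miR-341-3p in isolation 1 and miR-539-5p in isolations 1 and 3.

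Between isolations, both names detected throughout moved by nearly the same amount. Isolation 2 minus isolation 1 was 0.61 log2 units for miR-494-3p and 0.63 for miR-370-3p, with combined reading errors of 0.16 and 0.19, and isolation 3 minus isolation 2 was -0.23 and -0.24, within 1.43 and 1.34 times the combined errors. Over the 84 mouse miRNAs detected in all isolations, the median difference of isolations 2 and 1 was 1.37, with the middle 50% between 0.81 and 1.98. Of the 83 others, 71 had a larger difference than miR-494-3p and 70 a larger one than miR-370-3p. The 3 nearest in this difference were each other, miR-5105 and miR-3960 for both of them. With 3 arrays and a pair of names, no test was made of this likeness.

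Of the names of the locus outside the list, miR-1906 (50.7, 80.4 and 62.7) and miR-3070b-3p (54.9, 81.6 and 111.2) differed between isolations 2 and 1 by 0.67 and 0.57 log2 units. miR-3070b-3p was highest in isolation 3, 0.45 above isolation 2 or 3.33 times the combined error. miR-3072-5p (11.6, 58.5 and 43.8) had a larger difference of 2.34 between isolations 2 and 1, which 17 of the 83 other miRNAs exceeded. The names of the locus thus did not share a single pattern over the isolations.

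**Figure D4:**
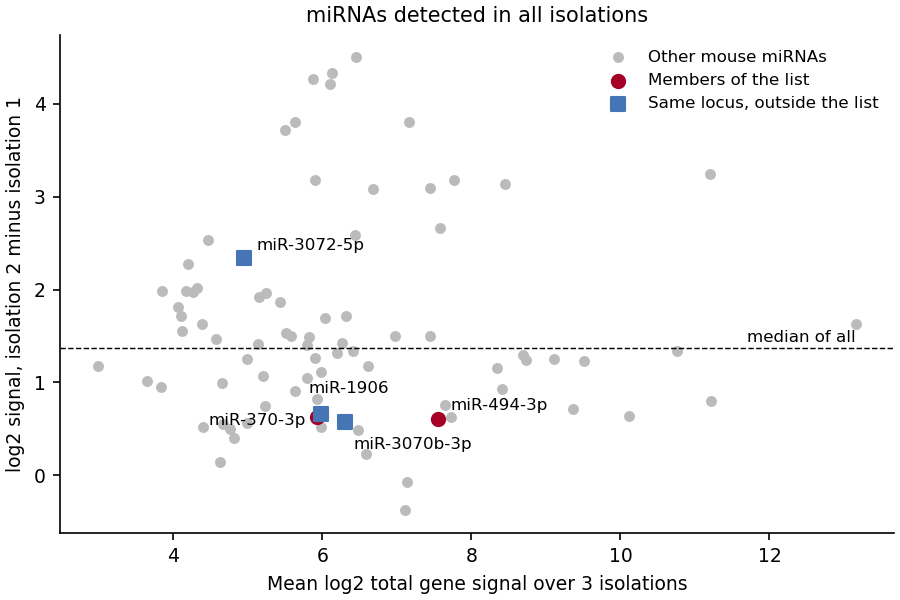
Difference in log2 signal of isolation 2 minus isolation 1 (vertical axis) against the mean log2 signal over the isolations (horizontal axis) for the 84 mouse miRNAs detected in all isolations. Members of the list (red) and 2 further names of the locus lie near 0.6, under the median of 1.37 (dashed line), and miR-3072-5p lies above it at 2.34.

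Isolation 1 stood apart from the others, with fewer detected miRNAs. The summed signal of detected mouse miRNAs was 13558 there, against 42478 in isolation 2 and 35179 in isolation 3. The names of the list took 1.45% of the summed signal of detected mouse miRNAs in isolation 1, 0.803% in isolation 2 and 0.758% in isolation 3 (1.00% ± 0.388, SD, n = 3), although they make up 9.27% of the names. With each array's 75th percentile over miRNAs detected in all isolations subtracted, miR-494-3p was at 0.98, -0.04 and 0.07 log2 units (0.34 ± 0.56, SD, n = 3) and miR-370-3p at -0.66, -1.65 and -1.56 (-1.29 ± 0.55). On this scale both were highest in isolation 1, whereas their signals were lowest there. The percentile subtracted was itself lowest in isolation 1, at 6.24 log2 units against 7.87 and 7.53 in isolations 2 and 3.

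Markers of cell types were read beside these values, in lists too short to be set against the 16.7% detected among all mouse miRNAs. Of 8 mesenchymal and osteoblastic miRNAs, 7 are on the array. Of these, 6 were detected in at least 1 isolation and 4 in all, and miR-143-3p was not detected. Their summed signals were 84.8, 1222 and 909 in isolations 1, 2 and 3. Of the miRNAs known from neurons, where the locus is strongly expressed, 0 of 4 were detected (miR-124-3p, miR-9-5p, miR-9-3p and miR-128-3p). None of 5 leukocyte, 2 red blood cell and 1 liver miRNAs was detected. Of 3 muscle miRNAs, miR-206-3p was detected, with signals from 7.71 to 37.4, and of 4 embryonic stem cell miRNAs, miR-294-3p was detected in isolations 2 and 3 (32.5 and 11.7). The part of these cell types in the signals of the locus was not tested.

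Base content differed among the detected members. A mature sequence was found for 96 of the 100 names. miR-370-3p and miR-341-3p are rich in G and C (68.2% and 66.7%), and 6 and 8 of the 92 undetected members with a sequence were at least as rich. In contrast, miR-494-3p (45.5%) and miR-539-5p (40.9%) lie under the median of the undetected members, 48.9%, whose middle 50% ran from 42.9% to 56.7%. G alone made up 45.5% of miR-370-3p and 42.9% of miR-341-3p, with 4 undetected members as high as either, but 18.2% of miR-494-3p, which 73 of 92 reached. For miR-539-5p the share of G was 31.8%, which 32 of 92 reached. The undetected strand of miR-341, miR-341-5p, is the richest in G and C of the members with a sequence (76.2%). Outside the list, miR-3072-5p has 77.3% G and C with 54.5% G, and miR-1906 has 68.2% and 40.9%. The part of base content in detection was not tested. The members were not compared in base content with the other miRNAs, since 78.8% of these had a sequence in the table, less than the 80% set as the minimum.

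**Figure D5:**
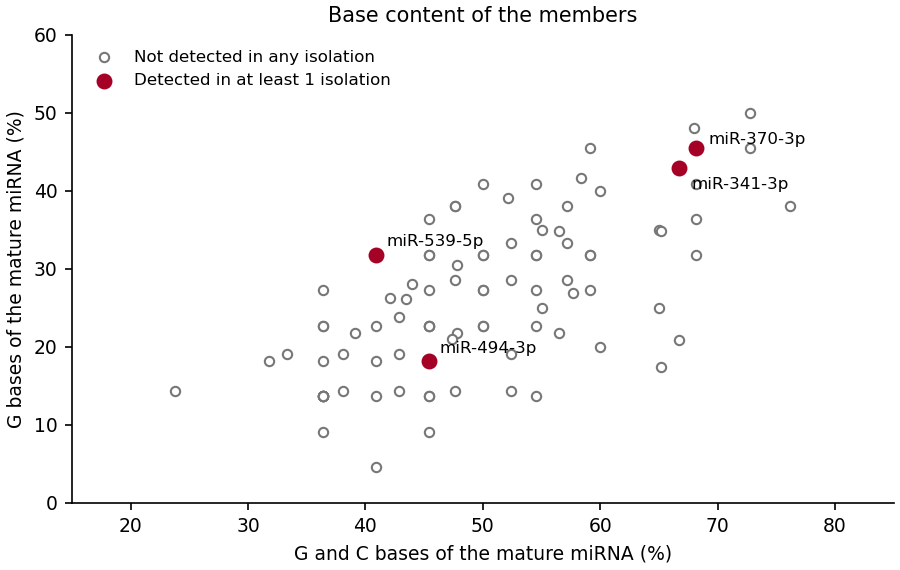
Percent of G bases (vertical axis) against percent of G and C bases (horizontal axis) of the mature sequence for 96 members, with the 4 detected members in red. miR-370-3p and miR-341-3p lie at the G-rich end at 68.2% and 66.7%, whereas miR-494-3p and miR-539-5p lie at 45.5% and 40.9% among the undetected members.

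The 96 members with a sequence carry 90 different seeds. Of these, 84 belong to a single member and 6 are shared by a pair of members, and 0 of the 12 members with a shared seed were detected, which is no different from what the 4% of the whole list gives for so few names. The undetected strands of both bright members belong to such pairs, miR-494-5p with miR-410-5p and miR-370-5p with miR-1193-3p.
miR-410-5p: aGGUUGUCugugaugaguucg
miR-1193-3p: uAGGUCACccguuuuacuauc

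The remaining pairs are miR-379-3p with miR-411-3p, miR-379-5p with miR-1193-5p, miR-758-5p with miR-1197-5p, and miR-376b-5p with miR-376c-5p. Another 7 member seeds are also carried by 8 array names outside the list, of which 2 were detected in at least 1 isolation, miR-672-5p with the seed of miR-377-5p and miR-3473a with that of miR-882. The member was undetected in each of these cases.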

How the data were processed

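MV RNA of MC3T3-E1 cells was read on 3 single-color miRNA arrays of 1 group. Isolation numbers are those of the sample titles, since the source name gives replicate 1 for all. The authors deposited, for each miRNA, an intensity (the total gene signal, linear, with no normalization between arrays), its error and a detection call, the latter being another value of 0 or 1, from Agilent Feature Extraction 10.10.1.1 per the labels' processing notes. Undetected names are filled with 0.1 (error 1), and levels under the limit are unknown. The number of arrays limits the precision.

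Signals were taken as log2 without a pseudocount. Errors of log2 values follow from the deposited errors, and those of differences add in squares. For normalized values, each array's 75th percentile over miRNAs detected throughout was subtracted, because the 90th percentile over all features, which the study used, falls on undetected features in isolation 1. Gene order and sequences come from RefSeq tables of GRCm38.p6, and the arrays name no assembly. Functions were tested on simulated arrays.

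The miRNAs named are the detected members with their other strands and seed partners, detected names of the locus outside the list, textbook members, comparison clusters, cell type lists and the 3 nearest miRNAs in mean signal and in the difference of isolations 2 and 1. Members and lists were chosen with earlier results of these data known. Alternatives were another detection rule, members by gene table, other scales and sums, and each isolation left out. Python 3.11.15 was used with numpy 2.4.6, pandas 2.3.3 and matplotlib 3.10.9.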

Additional observations from a re-analysis of the deposited data

How the results depend on the processing

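Counts did not change with a signal over 3 times its error. That rule could only drop calls and not add any, since undetected names are filled with 0.1 and an error of 1. Taking all genes between Dlk1 and Dio3 raised the names detected in at least 1, at least 2 and all isolations from 4, 3 and 2 to 7, 6 and 5, since 13 names were added, and moved the median log2 signal of names detected throughout from 6.74 to 5.99 and the share of the summed signal from 1.00% to 1.67%. With each isolation left out the counts were 3 to 4, 2 to 3 and 2 to 3, and the share 0.781% to 1.13%. The share was 3.95% once the 10 brightest miRNAs of each array were left out of the sum. The median was -0.48 relative to the 75th percentile over miRNAs detected on all arrays and 4.88 relative to the 90th over all mouse miRNAs, and 6.09 to 6.71 with each isolation left out. It was 6.09 without isolation 1, where 3 names enter. The normalized value of miR-370-3p, -1.29, was 4.07 with that 90th percentile, 0.0892 with the median over miRNAs detected on all arrays and 5.92 without a shift, and that of miR-494-3p, 0.34, was 5.69, 1.72 and 7.55. These settings change the zero of the scale on each array. The 90th percentile falls on undetected names in isolation 1, so values at that setting, with the median of 4.88, mix unlike references. Their SD over the isolations was 4.19 for miR-370-3p and 4.20 for miR-494-3p, beside 0.55 and 0.56 with the 75th percentile. With each isolation left out the values ranged from -1.13 to -0.51 and from 0.49 to 1.12, each highest without isolation 1, where the reference holds more miRNAs. Quantile normalization moved neither value by more than its SD. No paired analysis was possible because only 1 group exists. Nothing is resolved under the lowest signal with a detection call.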
